A study of Mus musculus with 2 samples.

Results

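The Sox genes encode transcription factors that share a DNA-binding domain of the high mobility group (HMG) type. They were examined in mDE6 cells, a mouse odontogenic epithelial line, by taking every array probe whose gene name was Sox2, Sox4, Sox5, Sox6, Sox7, Sox9, Sox11, Sox12, Sox13 or Sox18. All 10 genes were represented, by 22 probes, among 37074 gene names on the array. The control array held Cy3-labelled cRNA of mDE6 cells given DMSO vehicle, and the other array held that of mDE6 cells given CHIR99021, both collected at 6 h. The sample labels give the dose as 5 mM and the methods of the study as 5 μM, with untreated cells as the control. CHIR99021 inhibits GSK-3, the kinase that marks β-catenin for destruction, and so activates the β-catenin pathway. The comparison asks which Sox genes were lower or higher with the inhibitor. There was 1 array per condition, so no difference was tested, no p-value is given, and the spread between cultures is unknown. Both arrays lay on 1 slide, and the condition and the array's position on it cannot be told apart.

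Sox proteins fall into subgroups by the similarity of their HMG domains. SoxC proteins (Sox4, Sox11, Sox12) act in progenitor cells of many embryonic tissues, SoxD proteins (Sox5, Sox6, Sox13) lack an activation domain of their own, the SoxE protein Sox9 is known for cartilage and epithelial progenitors, SoxF proteins (Sox7, Sox18) act in vessels, and the SoxB1 protein Sox2 marks dental epithelial stem cells in the mouse incisor. TCF and LEF factors, the DNA-binding partners of β-catenin, carry a related HMG domain, and several Sox proteins are known to bind β-catenin or to compete with those factors.

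The line was checked against markers of its label. Of 9 epithelial markers, 5 were well above background on at least 1 array, among them Trp63 at 2306 in control and 2896 in CHIR99021-treated cells. Krt5 was so only after CHIR99021, at 5.51 and 165, in row 379 of the array's 384. Cdh1, Epcam, Krt8 and Krt19 were dim on both arrays. All 9 mesenchymal markers were well above background on both arrays, with Col1a2 at 270783 and 242601 and Vim at 52302 and 45883. For the cell types in which SoxF, SoxE and SoxB1 genes are best known, 1 of 5 endothelial, 1 of 4 cartilage, 3 of 6 glial and melanocytic and 3 of 4 neuronal markers were well above background on at least 1 array. The endothelial one was Pecam1, at 29.9 and 19.2, while Cdh5, Kdr, Tek and Emcn were not. Of the melanocytic ones, Mitf gave 777 and 485 and Dct 281 and 276. Of the neuronal ones, Snap25 gave 4650 and 3988, Tubb3 376 and 344 and Elavl4 131 and 174, and Rbfox3 did not stand above background. All 3 immune markers were measured on both arrays, with Ptprc at 1709 and 1764. How far the line's make-up bears on the Sox values was not tested.

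The results turn on a few probes, and their first 30 of 60 bases are shown here from 5′ to 3′ in lower case, as the array files give them, to let the repeat in the Sox5 probe be set beside the other probes. Capitals mark each GGA unit in the Sox5 probe.
Sox5 probe A_55_P2156905: GGAGGAGGAGGAagaGGAGGAGGAGGAaga
Sox9 probe A_55_P2798454: ttggggggtgagctttgattaattccccag
Sox9 probe A_55_P2745144: tcctactacagtcacgcagccggccagggc
Sox18 probe A_51_P472274: cttcctttcgcatatgtatgttagggtatg
Sox11 probe A_55_P2094721: gcaggagtttttcacagaggaatacatttg
Sox11 probe A_65_P09624: tggtcttcacaatgcattcgtcgaaaccgc

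The files place these probes in mouse build mm9, at chr6:143776945-143776971 for Sox5 on the minus strand, chr11:112647560-112647619 and chr11:112646642-112646701 for Sox9 on the plus strand, and chr2:181404789-181404848 for Sox18 on the minus strand. The Sox11 probes lie at chr12:28020087-28020146 on the minus strand and at chr12:28023292-28023351 on the plus strand. The files name no exon. Of the 22 Sox probes, 20 had all 60 bases placed. The exceptions were the Sox5 probe shown above, with 27 bases placed, and the Sox2 probe, with 57. The 60-base sequences ranged from 35.0% to 58.3% in G and C.

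A spot's signal is its brightness after background subtraction by the scanner software, in scanner units. The software also marks a spot as well above background or not, and puts a surrogate in place of a signal too low to measure. Of the 22 probes, 9 were well above background on both arrays, 2 on the control array alone and 11 on neither. The 11 probes on neither array ranged from 4.88 to 10.2, and 20 of the 44 Sox values were surrogates. At least 1 probe was well above background for 7 of the 10 genes, Sox4, Sox5, Sox9, Sox11, Sox12, Sox13 and Sox18. Sox2, Sox6 and Sox7 had none. Ratios of CHIR99021 over control were taken after dividing each signal by the 75th percentile of its array, 487 in control and 469 with CHIR99021, and each gene was read at its probe with the highest mean signal.

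**Figure D1:**
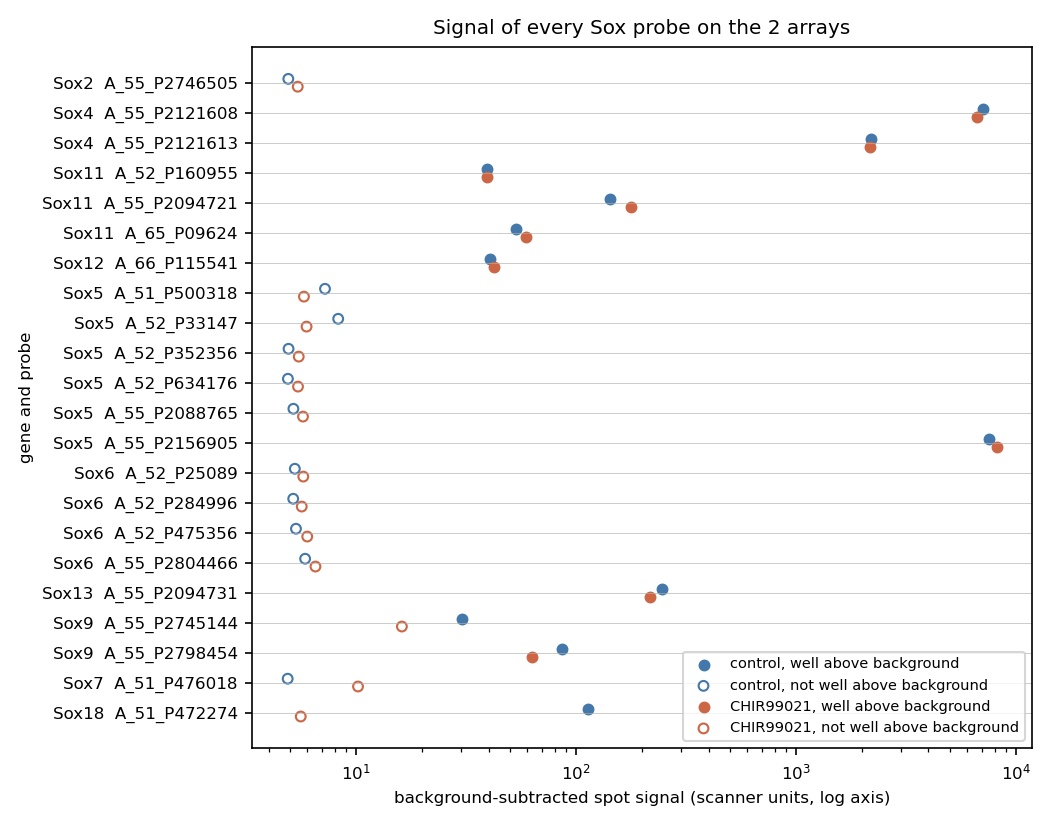
Background-subtracted spot signal (scanner units, log axis) of all 22 Sox probes, control in blue and CHIR99021 in orange, with filled points for spots well above background and open points for the others. The 11 probes with 2 open points lie between 4.88 and 10.2, and only Sox9 A_55_P2745144 and Sox18 A_51_P472274 are filled in control and open with CHIR99021.

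None of the 7 genes reached a ratio of 1.5, a level that 8.05% of all 18837 genes tested reached, and 1, Sox18, was at or below 0.66, as were 9.67% of all genes. A Z-score was also taken here against the 500 probes nearest in mean signal, since the study's methods name one without giving its formula. With a Z-score of at least 2.0 in size as well, no Sox gene was higher and Sox18 was lower as computed, against 2.67% higher and 3.24% lower among all genes. That Z-score used a surrogate for Sox18 after CHIR99021, and none was computed at its limit. Counts of 0 and 1 among 7 genes lie near these background shares. The 6 genes measured on both arrays had ratios from 0.759 to 1.29, with 3 below 1 and 3 above. For comparison, 89.2% of the 16886 genes measured on both arrays lay between 0.66 and 1.5. The median log2 ratio over the 7 Sox genes was -0.043, beside 0.024 over all genes tested.

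Most measured Sox spots were dim, which limits the precision. Each Sox probe was printed once. For 282 other probes with 10 bright spots each, the log2 ratio varied between spots with a median SD of 0.03, but the 3 of them with a control signal under 200 had a median SD of 0.22 and a highest of 0.33. The scanner software's own error for the 9 Sox probes measured on both arrays came to between 0.20 and 0.37 on the log2 ratio. It was 0.20 also at the bright Sox4 and Sox5 probes, above the median SD of 0.03 between bright spots. None of the 9 differed from a ratio of 1 by more than 2 such errors. Both errors leave out the spread between cultures.

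**Figure D2:**
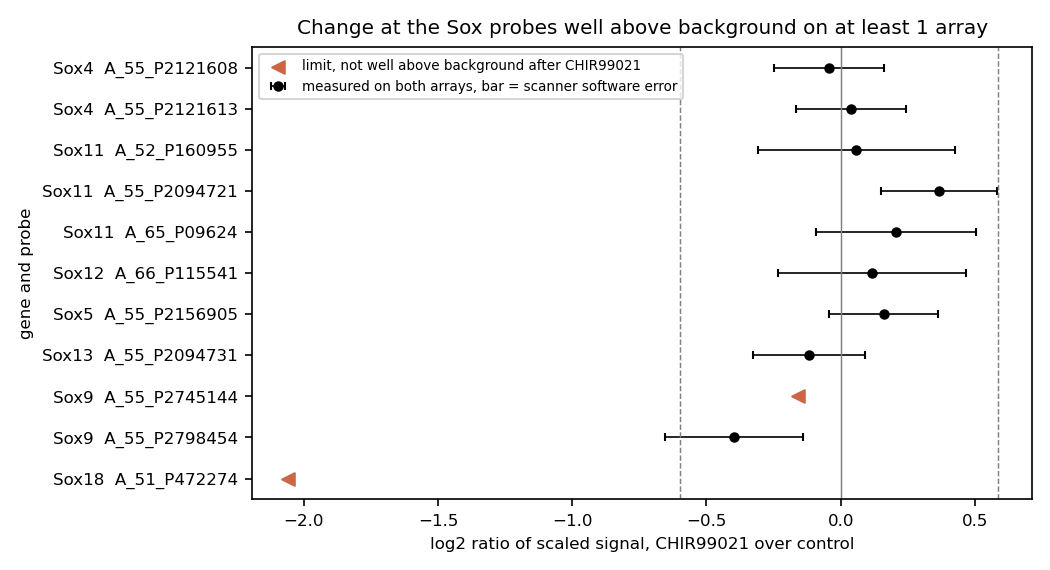
Log2 ratio of scaled signal, CHIR99021 over control, for the 11 Sox probes detected in control or with CHIR99021. Points with bars are the 9 probes measured on both arrays with the scanner software's error, triangles are limits for the 2 probes not well above background after CHIR99021, and dashed lines mark ratios of 0.66 and 1.5. No point lies outside the dashed lines, and of the triangles only that of Sox18 does.

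Among the SoxC genes, Sox4, which promotes survival and progenitor state in many epithelia, was measured by 2 probes. Probe A_55_P2121608 gave 7092 in control and 6635 in CHIR99021-treated cells, and probe A_55_P2121613 gave 2185 and 2162. The arrays were nearly level at both. The ratios after scaling were 0.971 and 1.03, with an error of 0.20 on the log2 scale for each, and the direction of either turned with the scaling used. Sox4 thus showed no difference beyond the scaling between arrays.

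Sox11, the SoxC gene known from neural and mesenchymal progenitors, had 3 probes, and the CHIR99021 array was the brighter at all of them before scaling. Probe A_55_P2094721, the brightest, gave 143 in control and 177 in CHIR99021-treated cells. That is a ratio of 1.29, or 0.37 on the log2 scale with an error of 0.22 and a Z-score of 0.77, and 14.1% of the genes measured on both arrays had a ratio as high. Probe A_65_P09624 gave 53.5 and 59.4, a ratio of 1.15, and probe A_52_P160955 gave 39.4 and 39.5, a ratio of 1.04. The lower ratios thus came from the dimmer probes. Their ranges of error overlap, with 0.30 for the second and 0.37 for the third on the log2 scale. The coordinates of A_65_P09624 run opposite to those of the other Sox11 probes. Over the array, 99.2% of 32950 probes ran in the direction of the RefSeq gene of their name, as did 17 of 18 Sox probes that could be compared, so this probe reads the strand opposite to Sox11 by the files' own convention.

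Sox12, the third SoxC gene, had 1 probe near the detection limit. It gave 40.5 in control and 42.3 in CHIR99021-treated cells. The lowest signals called well above background were 23.7 and 26.3 on the same arrays. The ratio was 1.08 with an error of 0.35 on the log2 scale.

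Among the SoxD genes, Sox13 was the only one measured by a probe of ordinary sequence. Sox13 is known for its role in T cell lineages and as a partner of TCF factors. It gave 245 in control and 218 in CHIR99021-treated cells. That is a ratio of 0.922, or -0.12 on the log2 scale with an error of 0.21, so the arrays differed by less than the error of the spot.

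Sox5, which works with Sox6 and Sox9 in cartilage, had 6 probes with opposite readings. Probe A_55_P2156905 gave 7576 in control and 8158 in CHIR99021-treated cells, a ratio of 1.12 with an error of 0.20 on the log2 scale. The other 5 were not well above background on either array, at 4.89 to 8.28 in control and 5.44 to 5.95 with CHIR99021. These 5 include A_51_P500318 and A_52_P33147, which carry the same transcript accession as the bright probe. The bright probe is 100% A and G, with 16 GGA units in its 60 bases, whereas the other Sox probes were between 33.3% and 68.3% A and G.

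Signals of other probes of that composition were therefore read. The array held 22 probes of at least 95% A and G, under 18 gene names, and Sox5 A_55_P2156905 was the only one in a Sox gene. All 22 were well above background on both arrays, compared with 44.2% of the other 56583 probes. Their median control signal was 13038, beside 21.0 for the other probes, and they ranged from 53.3 to 28611. The ratio of CHIR99021 over control had a median of 1.30 over the 22, from 0.921 to 1.48. Only 146 of 56209 placed probes had 27 or fewer bases placed, as this one had. What the probe bound was not tested, and without it Sox5 had no measured level.

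**Figure D3:**
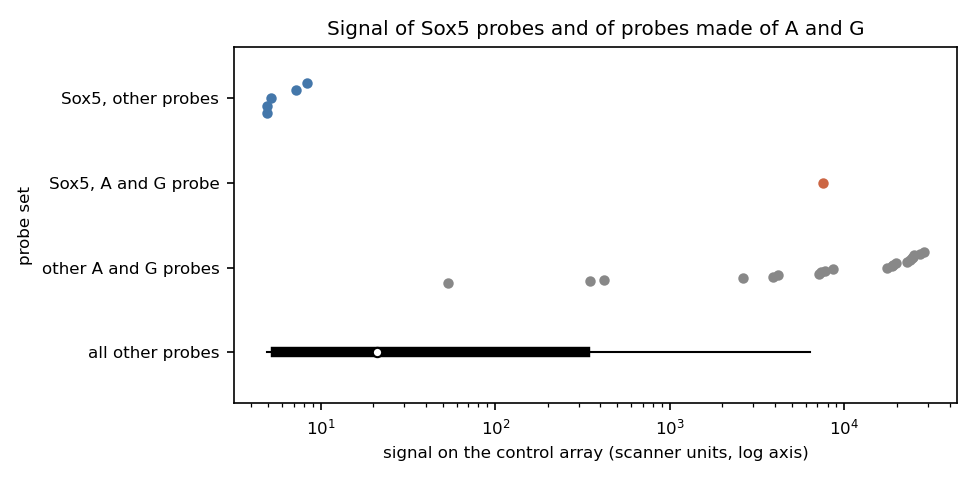
Signal on the control array (scanner units, log axis) of the 5 other Sox5 probes, of the Sox5 probe made of A and G, of the 21 other probes of at least 95% A and G, and of all other probes, for which the thin line spans the 5th to 95th percentile, the thick line the quartiles and the open point the median of 21.0. The A and G probe of Sox5 is at 7576, and the 5 other Sox5 probes reach 8.28 at most. Signals of different probes are not levels of their genes.

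Sox6, the close relative of Sox5, had 4 probes and none was well above background. They gave 5.17 to 5.86 in control and 5.66 to 6.53 in CHIR99021-treated cells, and all 8 values were surrogates. No ratio was therefore taken.

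Sox9, the SoxE gene, gave the lowest ratio among Sox genes measured on both arrays. Probe A_55_P2798454 gave 86.4 in control and 63.2 in CHIR99021-treated cells. That is a ratio of 0.759, or -0.40 on the log2 scale with an error of 0.26 and a Z-score of -0.50, and 11.6% of the genes measured on both arrays had a ratio as low. Under the other scalings, the background correction and the floor on low signals it stayed between 0.732 and 0.853, below 1 in each. Probe A_55_P2745144 gave 30.4 in control and 16.1 in CHIR99021-treated cells, and was well above background in control alone. Against the lowest signal called well above background on the CHIR99021 array, it was at least 1.12-fold lower, and the ratio as computed, 0.550, had an error of 0.59 on the log2 scale. Its log2 ratio, -0.86 as computed, was -0.16 with dim signals raised to the floor and -0.03 with normexp background correction. Both Sox9 probes were thus dimmer on the CHIR99021 array, each by under 2 of its errors, and only 1 of them gives a measured ratio. Both lie before the middle of the array's 384 rows, at rows 18 and 104, and neither had a spot lost by more than 4-fold within 3 rows and columns.

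Sox18, a SoxF gene known from the endothelium of blood and lymph vessels, was the only one of the 7 genes tested that was past a ratio criterion. Its single probe gave 114 in control and 5.60 in CHIR99021-treated cells, the latter a surrogate. With the lowest signal well above background on the CHIR99021 array as the floor, it was at least 4.17-fold lower. Spots above that floor could also lack the mark, so the limit for Sox18 may be smaller. The log2 ratio as computed was -4.29, with an error of 1.46 and a Z-score of -2.24. Raising dim signals to that floor gave -2.06, and normexp background correction gave -1.51. Among 1217 genes whose highest-signal probe was well above background in control alone, 174 had a limit as large or larger.

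Values around that spot moved with the result. The pixels of the Sox18 spot in control had an SD of 0.380 of their mean, against a 99th percentile of 0.260 for bright spots before the middle row. The spot lies in row 311, past the middle, and 8 of the 46 spots within 3 rows and columns of it were lost by more than 4-fold in the same way, compared with 1.03% of all spots. Of all 612 spots so lost, 92.6% lay past the middle row. The 6 adjacent spots that were read had a median log2 ratio of -0.78. Their part in the Sox18 value was not tested. No second probe of Sox18 was on the array. Of the 12 SoxF targets and partners listed below, 5 were tested and none was at or below 0.66, beside 9.67% of all genes. What so few genes mean for Sox18 was not tested.

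Sox7, the other SoxF gene, had 1 probe, which gave a surrogate of 4.88 in control and 10.2 in CHIR99021-treated cells. It did not stand well above background, and no fold was taken. Sox2, the SoxB1 gene of dental epithelial stem cells, likewise had 1 probe, with surrogates of 4.91 and 5.42. The brightness of its spot before background subtraction was 72.9 and 72.6, beside medians of 69.2 and 70.4 over 308 negative control spots. Sox2 was thus not detected in either condition at this array's sensitivity, which does not show that the transcript was absent.

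**Figure D4:**
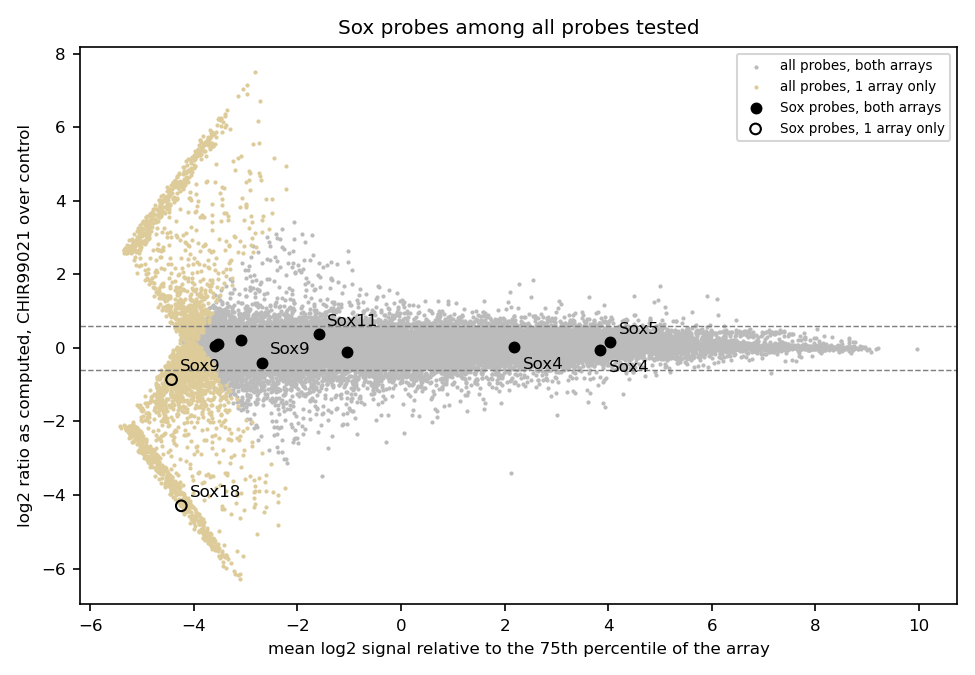
Log2 ratio as computed, CHIR99021 over control, against mean log2 signal relative to the 75th percentile of the array, for all probes tested (grey where measured on both arrays, tan where on 1 array only) and for the 11 Sox probes tested (black, open where on 1 array only). Dashed lines mark ratios of 0.66 and 1.5. The Sox probes measured on both arrays lie inside the dashed lines, and Sox18 sits in the lower tan arm of probes lost on the CHIR99021 array.

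The 10 Sox family genes outside the list gave a like picture. Their 14 probes were well above background on both arrays for 3 genes and on the control array alone for 1. Sox15 gave 66.1 in control and 74.2 in CHIR99021-treated cells, a ratio of 1.16, Sox1 gave 106 and 86.4, a ratio of 0.848, and Sox21 gave 116 and 112, a ratio of 1.00. Sox14 gave 400 and 21.2 at probe A_52_P641132, at least 14.7-fold lower against the same floor as Sox18. Like that of Sox18, this spot lies in the later rows, at row 380, with a pixel SD of 0.477 of its mean in control and 5 of 44 nearby spots lost by more than 4-fold. The other Sox14 probe, A_51_P241897, gave 5.06 and 6.27, near background on both arrays. Sox8, Sox10 and Sox17 were not well above background on either array. That leaves Sox9 in SoxE and, in control alone, Sox18 in SoxF.

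Genes tied to the Sox factors were read from lists, each gene at its highest-signal probe. Their counts are to be read against the shares of all genes, 8.05% at or above 1.5 and 9.67% at or below 0.66. Of 14 cartilage targets of Sox9 and SoxD proteins, 8 were tested, 2 were at or above 1.5 and none at or below 0.66, with a median log2 ratio of -0.05. Over the 7 measured on both arrays the median was 0.055. Col2a1, the classic Sox9 target, gave 900 in control and 625 in CHIR99021-treated cells, a ratio of 0.720. Mia and Col11a2 had ratios of 1.76 and 1.58 at signals under 72. Col27a1 had a ratio of 1.39. Measured targets of Sox9 thus lay on both sides of 1, and Acan, Matn1 and Col9a1 were not well above background.

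Of 8 SoxC targets all were tested, none was at or above 1.5 and 1 was at or below 0.66, with a median log2 ratio of -0.17. That gene was Dcx, at 26.9 in control and not well above background after CHIR99021, with no fold against the floor, and 1 of 8 is near the share of all genes. Over the 7 targets measured on both arrays, which leave out Dcx, the median log2 ratio was -0.094. Stmn1, a regulator of microtubules, had a ratio of 0.733, Nrp1, a semaphorin receptor, 0.786, Tmsb10 0.841 and Tead2 0.937. Of 12 SoxF targets and partners, 5 were tested and all lay between the 2 ratios, with a median log2 ratio of -0.17. Vcam1, the adhesion molecule, had a ratio of 0.731, Mef2c, a MADS-box factor, 1.31, Ephb4 0.853 and Nr2f2 0.887.

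Of 10 partners of Sox2 and pluripotency genes, 7 were tested, with a median log2 ratio of 0.13. Pou5f1, which encodes the Oct4 partner of Sox2, gave 131 in control and 217 in CHIR99021-treated cells, a ratio of 1.72, and was the only one past either ratio. Utf1 and Klf4 had ratios of 1.21 each, and Lin28a of 0.911. Of 11 genes of dental epithelial stem cells, 9 were tested, with a median of 0.08. Over the 8 measured on both arrays, which leave out Isl1, the median was -0.086. Against the lowest signal well above background in control, Isl1 was at least 3.45-fold higher, from 10.8 in control, not well above background, to 78.8. Gli1, a Hedgehog target, gave 85.8 and 33.0, a ratio of 0.399, and Igfbp5 gave 372 and 222, a ratio of 0.619. Lgr5 had a ratio of 1.39 and Lrig1 of 1.29. Gli1 and Igfbp5 were the only ones of the list at or below 0.66, with Z-scores of -1.15 and -1.74. Gli1, Igfbp5 and Isl1 lie past the array's middle row, at rows 299, 244 and 232, and spots near them were not read.

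The 4 related HMG factors that bind β-catenin were all measured on both arrays. Lef1 gave 239 in control and 690 in CHIR99021-treated cells, a log2 ratio of 1.58. The log2 ratio was 0.64 for Tcf7, 0.14 for Tcf7l2 and -1.05 for Tcf7l1. For the Sox genes measured on both arrays it ran from -0.40 to 0.37. Of 13 Wnt feedback genes tested, 8 were at or above 1.5 and none at or below 0.66, with a median log2 ratio of 0.67. Lef1 and Tcf7 are in both lists. Rnf43 had a ratio of 2.49, Apcdd1 of 2.19 and Nkd2 of 1.79. This list serves as a check that the array labelled CHIR99021 differs from control in known β-catenin targets, and the difference between lists was not tested.

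**Figure D5:**
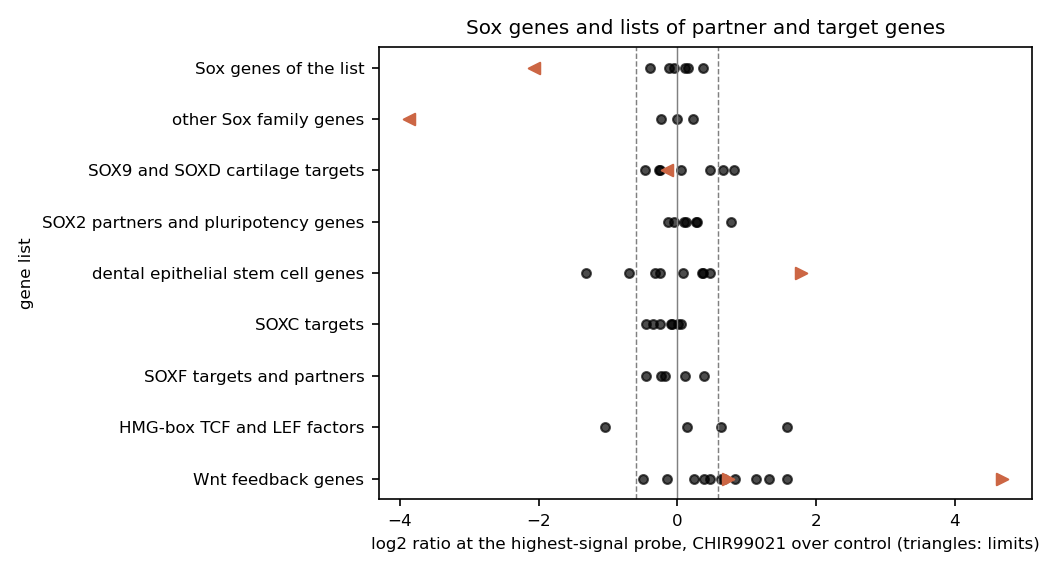
Log2 ratio at the highest-signal probe of each tested gene, CHIR99021 over control, for the Sox genes and for the lists of other Sox, target, partner, TCF/LEF and Wnt feedback genes. Black points were measured on both arrays, triangles are limits for genes well above background on 1 array only, limits under 1-fold are not drawn, and dashed lines mark ratios of 0.66 and 1.5. The 6 black points of the Sox genes lie within the dashed lines, whereas Lef1 at 1.58 and Tcf7l1 at -1.05 lie outside them.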

How the data were processed

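Total RNA of mDE6 cells was amplified, labelled with Cy3 and hybridised by the authors to 1 array per condition. The deposited intensity of each spot was background-subtracted by Feature Extraction (10.7.1.1 in the file headers, 9.5.1.1 in the submitters' processing notes) and not normalized between arrays. The authors also deposited normalized intensity values, which served as an alternative. Each array held 59305 spots besides control spots, of which 49.8% and 48.3% were well above background, and none was saturated. The number of arrays limits the precision.

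Spots flagged as outliers and control spots were removed, repeat spots were averaged, and each array was scaled by the 75th percentile over its non-control spots before log2. The 28066 probes detected in control or with CHIR99021 were held against ratios of 1.5 and 0.66. A limit used the lowest signal well above background on the array as the floor. Spots above that floor could lack the mark, as Col9a2 did at 31.3 with CHIR99021, where the floor was 26.3. Limits may therefore be too large. Python 3.11.15, numpy 2.4.6, pandas 2.3.3, matplotlib 3.10.9 and, for normexp, limma 3.58.1 in R 4.3.3 were used. The calls by ratio and Z-score together were tested on simulated data. These had constant noise and no surrogates, so calls by ratio alone and the Sox18 call were not tested. The Z-score is a definition adopted here. Of the 22 Sox probes, 16 carry an accession found in the RefSeq table of assembly GRCm38.p6, each under the same symbol. Named genes were all Sox genes of the list and, in other lists, up to 4 with the widest ratios measured on both arrays. Markers and the genes Isl1, Dcx, Acan, Matn1 and Col9a1 were named besides, after their values were seen. Alternatives changed the scaling, background correction, filter, floor, choice of probe and call rule, or used the authors' table. The Sox genes and the lists were chosen with earlier results of these data known. Values of some marker genes are not reported here.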

Additional observations from a re-analysis of the deposited data

How the results depend on the processing

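No paired analysis was possible because there was only 1 array for each condition. The count of 1 Sox gene at or below 0.66 became 0 when only probes measured on both arrays were kept, 0 with the earlier rows only, and 2 with the mean over probes or the probe with the lowest ratio, which add Sox9 through a probe that gives only a limit. The count of 0 at or above 1.5 became 1 with no filter, through Sox7, which did not stand above background. The other alternatives kept both counts.

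The median log2 ratio of the Sox genes, -0.043, lay between -0.11 and 0.14, and its sign turned with the setting. It was -0.11 with quantile normalization and with the authors' normalized table, -0.0016 with median scaling, -0.095 with the percentile over probes bright on both arrays, 0.044 with spike-in scaling, -0.096 without scaling, 0.037 with probes measured on both arrays, 0.14 with no filter, -0.0026 with the mean over probes and 0.038 with the probe of highest ratio. With the alternatives chosen after seeing the data, which include the earlier rows above, it was -0.080 without probes of A and G and 0.065 in the earlier rows.

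The Sox18 log2 ratio ranged from -4.38 to -1.51, the latter with normexp, whose offset of 50 shrinks ratios of dim probes. Signal over background leaves Sox18 and 1 Sox9 probe with limits only.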

Other observations

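Noncoding transcripts named after Sox loci were not well above background on either array. The 3 probes of Sox2ot, whose locus spans Sox2, gave 4.88 to 5.14 in control and 5.42 to 5.64 in CHIR99021-treated cells. The probes of Sox5os3, Sox5it and Sox6os gave 4.77, 5.85 and 5.30 in control and 5.31, 6.39 and 5.99 with CHIR99021. No ratio was taken for them.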
